A study of Rattus norvegicus with 4 samples.

Results

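The 9 genes described here mark vascular smooth muscle, pericytes and contractile myofibroblasts: Acta2, Tagln, Myh11, Cnn1, Mylk, Lmod1, Rgs5, Cspg4 and Notch3. They were chosen by name, matched to the array through the accession of each probe, and all 9 were present, on 12 probes, among 26633 genes and transcripts. The tissue was soleus of male rats, a calf muscle rich in slow fibres. The 4 groups were regenerated overloaded and overloaded muscle, both at an age of 18 weeks, and regenerated and normal muscle, both at 16 weeks. For regenerated muscle the labels give 8 weeks since a CTX injection, without expanding CTX (in this field usually cardiotoxin, a venom toxin that destroys muscle fibres); for regenerated overloaded muscle they give overload and no interval. Muscle called overloaded here is labelled hypertrophied, and strain and the way of loading are not given in the sources used here. The sample titles of regenerated and normal muscle share a stem and end in L and R, as do those of regenerated overloaded and overloaded muscle; whether these letters mark opposite legs of the same rats is not stated, so normal and overloaded muscle may come from rats whose other leg was injured. RNA of 6 muscles per group was pooled on 1 array, so each group has n = 1, no difference below has a check between animals, and no test between groups was run.

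Smooth muscle cells and pericytes together are the mural cells of blood vessels, which wrap arterioles and capillaries and set vessel tone. Smooth muscle contracts when myosin light chain kinase phosphorylates the light chains of its myosin, and its contractile genes are switched on by serum response factor (SRF) with the coactivator myocardin at a DNA element called the CArG box. Pericytes are kept in place by PDGF-B from endothelial cells acting on PDGF receptor beta, and Notch3 is the mural Notch receptor that reads endothelial Jagged 1. In fibrosis some fibroblasts take on part of the contractile set, Acta2 above all, and are then called myofibroblasts.

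No member that could be measured differed 2-fold in any of the 4 comparisons, beside 1.93% of all genes and transcripts in regenerated against normal, 3.2% in overloaded against normal, 1.99% in regenerated overloaded against regenerated and 1.71% in regenerated overloaded against overloaded muscle. Where 4 differences are listed below, they follow that order. Of the 7 that were well above background on all 4 arrays, Cspg4 spanned the widest range, 1.63-fold between its highest array (regenerated overloaded) and its lowest (normal). The span of the other 6 was 1.08-fold to 1.27-fold. Among all 14417 genes above background on all 4 arrays, 6.23% spanned 2-fold or more, and the median span was 0.35 on the log2 scale, against 0.22 for the 7 members. In whole-muscle RNA, fewer cells of a type and less RNA per cell cannot be told apart.

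Signals are Agilent processed signals (background-subtracted fluorescence), and scaled values are log2 of the signal over the array's own 75th percentile, which was 790, 817, 740 and 662 intensity units for regenerated overloaded, overloaded, regenerated and normal muscle. The share of probe spots well above background was 68.1%, 70.6%, 68.9% and 60.4% in the same order, and normal muscle stood apart in local background too, with a median of 44 units against 32 to 33. All 4 arrays lay on 1 slide, with both overloaded groups in its second row, so overload cannot be told apart from age or from the row on the slide. Errors are technical standard errors (SE), estimated from the scatter of replicate spots within arrays. They leave out the choice of scaling between arrays. All 8 skeletal muscle fibre markers on the array, of 10 listed, were well above background on every array.

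RefSeq promoter windows of 300 bases (250 before and 50 after the annotated gene start, build GRCr8) were found for 6 of the 9 members. Tagln, Myh11 and Lmod1 had no window and were not searched. The CArG box was searched as its textbook consensus on both strands, which is the same search because the consensus is its own reverse complement. An exact match was in none of the 6 windows and in 1.64% of all 33469 windows. With up to 1 mismatch it was in 1 of the 6, Acta2, and in 21.3% of all windows. The Acta2 window (chr1:241172454-241172753, minus strand) is shown because it holds 2 such matches, and the Srf window (chr9:21923826-21924125, plus strand) because the gene of the factor itself holds exact ones; capitals mark the matches.
Acta2: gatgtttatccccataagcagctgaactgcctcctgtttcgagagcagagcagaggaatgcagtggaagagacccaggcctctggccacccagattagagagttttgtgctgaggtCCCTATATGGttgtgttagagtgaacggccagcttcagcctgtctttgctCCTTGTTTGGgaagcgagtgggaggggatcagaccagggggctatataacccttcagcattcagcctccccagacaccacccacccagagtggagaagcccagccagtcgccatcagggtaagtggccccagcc
Srf: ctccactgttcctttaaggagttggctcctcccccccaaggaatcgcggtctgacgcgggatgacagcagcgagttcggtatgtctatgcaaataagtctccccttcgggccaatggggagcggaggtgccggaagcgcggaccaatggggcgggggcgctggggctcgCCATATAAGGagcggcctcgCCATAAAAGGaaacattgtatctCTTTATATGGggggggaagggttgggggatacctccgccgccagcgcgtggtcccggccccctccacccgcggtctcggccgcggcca
The Acta2 matches start 134 and 84 bases before the annotated gene start and each have 1 mismatch. Srf holds 2 exact matches, starting 81 and 61 bases before its start, and another with 1 mismatch at 38. A match describes these letters and shows no binding.

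Acta2, the actin of the smooth muscle thin filament and the usual myofibroblast marker, had a processed signal of 556 units in regenerated overloaded, 546 in overloaded, 476 in regenerated and 400 in normal muscle. After scaling its 2 spots lay at -0.52 and -0.49 in regenerated overloaded muscle, -0.62 and -0.54 in overloaded, -0.68 and -0.60 in regenerated, and -0.80 and -0.65 in normal muscle. Regenerated overloaded muscle had the highest and normal muscle the lowest mean, and the spots of regenerated muscle overlapped with those of overloaded and of normal muscle. The log2 difference was 0.091 (SE 0.077) for regenerated against normal, 0.15 (SE 0.079) for overloaded against normal, 0.13 (SE 0.070) for regenerated overloaded against regenerated and 0.075 (SE 0.073) for regenerated overloaded against overloaded muscle. Each was under 2 SE with the main scaling, and all kept their sign under the 11 other settings tried. Their highest values over those settings were 0.22, 0.32, 0.17 and 0.085. Acta1, the near-identical skeletal actin, had differences of -0.35, -0.38, -0.21 and -0.18 in the same comparisons, and cross-hybridisation between actin genes was not tested.

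Tagln, transgelin (SM22-alpha), an actin-binding protein of smooth muscle, had 2066, 1870, 1711 and 1536 units in regenerated overloaded, overloaded, regenerated and normal muscle. Scaled, its spots lay at 1.37 and 1.40 in regenerated overloaded muscle, above 1.17 to 1.22 in overloaded, 1.206 to 1.211 in regenerated and 1.207 to 1.221 in normal muscle. The last 3 arrays overlapped. Tagln was thus 0.18 (SE 0.055) higher on the log2 scale in regenerated overloaded than in regenerated muscle. Regenerated overloaded muscle was 0.19 (SE 0.055) above overloaded muscle. Both were over 3 times the SE with the main scaling. Over the 11 other settings they ran between 0.12 and 0.22 and between 0.14 and 0.20, at the low ends under 3 times the SE. Against normal muscle the difference was -0.0048 (SE 0.056) in regenerated and -0.018 (SE 0.056) in overloaded muscle, and both turned positive under 4 of the 11 other settings.

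Myh11, the smooth muscle myosin heavy chain and the most specific marker of mature smooth muscle, had 1007, 980.5, 998 and 871 units in regenerated overloaded, overloaded, regenerated and normal muscle on its brighter probe. Its scaled spots lay at 0.32 and 0.38 in regenerated overloaded, 0.24 and 0.29 in overloaded, 0.42 and 0.44 in regenerated, and 0.37 and 0.42 in normal muscle. Overloaded muscle was the lowest of the 4 and regenerated muscle the highest, over a range of 0.17. The difference was 0.037 (SE 0.060) for regenerated and -0.13 (SE 0.059) for overloaded against normal muscle, -0.082 (SE 0.058) for regenerated overloaded against regenerated and 0.086 (SE 0.057) for regenerated overloaded against overloaded muscle. The dimmer probe gave 0.014, -0.073, -0.13 and -0.045 for the same comparisons, so the probes disagreed in sign in the last. The first turned to -0.049 under median scaling and the second to 0.041 with the authors' deposited table.

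Mylk, the myosin light chain kinase of smooth muscle and non-muscle cells, had 1357, 1262, 1136 and 899 units in regenerated overloaded, overloaded, regenerated and normal muscle on its brighter probe. The scaled spots of regenerated overloaded muscle lay at 0.74 and 0.82, of overloaded at 0.59 and 0.67, of regenerated at 0.54 and 0.69, and of normal muscle at 0.37 and 0.51. The normal array was below the other 3, and overloaded and regenerated muscle overlapped. Mylk was 0.18 (SE 0.060) higher in regenerated and 0.19 (SE 0.059) higher in overloaded than in normal muscle. Regenerated overloaded muscle was 0.16 (SE 0.058) above regenerated and 0.15 (SE 0.057) above overloaded muscle. The dimmer probe gave differences of the same sign, 0.38, 0.37, 0.098 and 0.11, with SE of 0.24 to 0.37.

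Cnn1 and Lmod1 gave no usable level. Cnn1, calponin 1, an actin-binding regulator of smooth muscle contraction, had 15.2, 20.8, 15.3 and 26.0 units in regenerated overloaded, overloaded, regenerated and normal muscle, and its probe was called well above background in overloaded muscle alone. On the normal array, where the lowest spot called well above background had 27.7 units, Cnn1 was brighter than in overloaded muscle yet not called, so no fold against normal muscle is given. Lmod1, the leiomodin that nucleates actin filaments in smooth muscle, was not well above background on any array with either of its 2 probes.

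Rgs5, a regulator of G-protein signalling used as a pericyte marker, had 1793, 1776, 1504 and 1179 units in regenerated overloaded, overloaded, regenerated and normal muscle. On the scaled log2 axis they lay at 1.14 and 1.23 in regenerated overloaded, 1.08 and 1.16 in overloaded, 0.99 and 1.06 in regenerated, and 0.80 and 0.87 in normal muscle. Both overloaded groups overlapped, and regenerated muscle lay between them and normal muscle without overlap. The difference was 0.19 (SE 0.060) for regenerated against normal, 0.29 (SE 0.059) for overloaded against normal and 0.16 (SE 0.057) for regenerated overloaded against regenerated muscle, each more than 2 SE with the main scaling. Over the 11 other settings these ran between 0.10 and 0.32, 0.17 and 0.46, and 0.098 and 0.20. At their low ends the first and the last were under 2 SE. Against overloaded muscle, regenerated overloaded muscle stood at 0.061 (SE 0.055).

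Cspg4, the NG2 proteoglycan of the pericyte surface, was printed 10 times and is the most precisely measured of the 9. Its processed signal had a lowest, median and highest spot of 2108, 2233 and 2322 units in regenerated overloaded muscle, 1837, 1945 and 2032 in overloaded muscle, 1545, 1667 and 1681 in regenerated muscle and 1077, 1151 and 1181 in normal muscle. Scaled, the 10 spots ran between 1.42 and 1.56 in regenerated overloaded, 1.17 and 1.32 in overloaded, 1.06 and 1.18 in regenerated, and 0.70 and 0.84 in normal muscle. Regenerated overloaded muscle was above and normal muscle below every other array, and overloaded and regenerated muscle overlapped at their edges.

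Cspg4 was 1.29-fold higher in regenerated than in normal muscle (log2 difference 0.36, SE 0.026), 1.38-fold higher in overloaded than in normal muscle (0.46, SE 0.026), 1.26-fold higher in regenerated overloaded than in regenerated muscle (0.34, SE 0.025) and 1.18-fold higher than in overloaded muscle (0.24, SE 0.025). These are the largest differences in each comparison among the 7 members above background on all arrays. The sign held under all 11 other settings, over which the differences ran between 0.28 and 0.50, 0.35 and 0.63, 0.28 and 0.38, and 0.21 and 0.25. Of the genes measured above background in both groups, 10.04% to 11.53% had a difference at least as high, depending on the comparison.

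Notch3, the Notch receptor of mural cells, was dim, with 105, 117, 103 and 88.9 units in regenerated overloaded, overloaded, regenerated and normal muscle. Its spots had scaled values of -2.96 and -2.85 in regenerated overloaded, -2.86 and -2.74 in overloaded, -2.94 and -2.76 in regenerated, and -2.92 and -2.88 in normal muscle. They overlapped between all pairs of arrays except overloaded and normal muscle, and the differences were 0.047, 0.098, -0.057 and -0.11 for the 4 comparisons, each smaller than its SE of 0.13 to 0.18. One of its 2 spots lay in the outer 16 rows of the array.

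**Figure D1:**
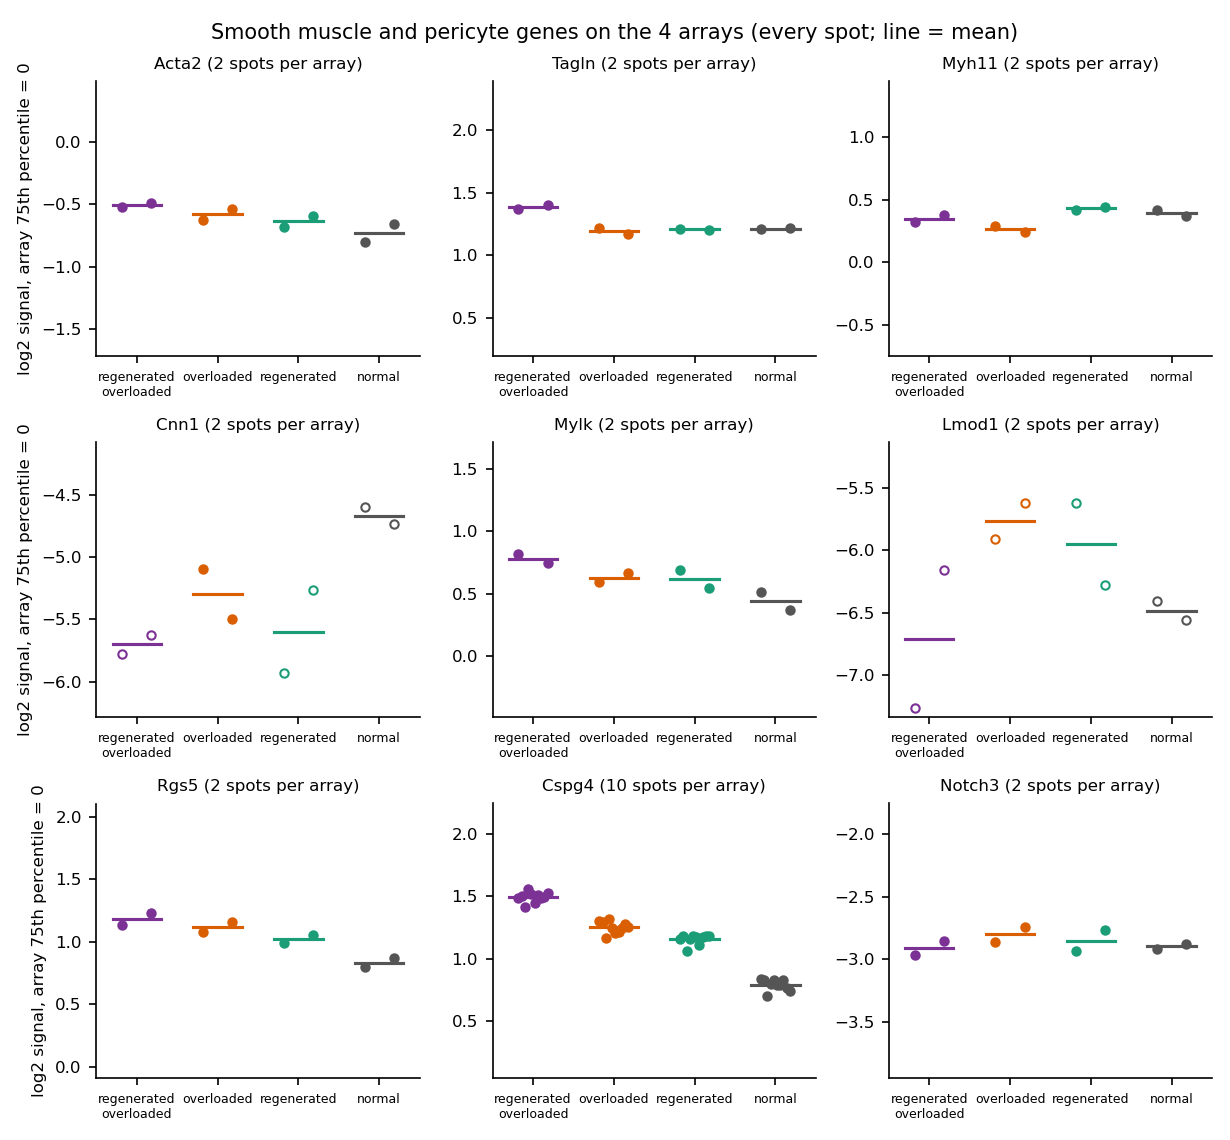
Scaled log2 signal (array 75th percentile = 0) of every spot of the probe used for each of the 9 genes, by array, with the mean as a line; open circles mark arrays on which the probe was not well above background, and every panel spans 2.2 log2 units. Cspg4 is highest in regenerated overloaded and lowest in normal muscle, with means of 1.49 and 0.79, while Tagln, Myh11 and Notch3 span 0.19, 0.17 and 0.11.

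Regenerated against normal muscle sets muscle 8 weeks after injury beside uninjured muscle. Of the 9 members 7 were measured, none passed 2-fold, 6 had a positive and 1 a negative difference, and the median was 0.091. Over all 16911 genes and transcripts measured, 1.93% passed 2-fold in either direction, and the all-gene median, over those above background in both groups, was -0.11. All 7 members lay above that median. The spots of 4 members were higher without overlap (Myh11, Mylk, Rgs5 and Cspg4) and those of none lower. Over all genes and transcripts above background in both groups, read from a probe with more than 1 spot, 25.7% were higher and 46.8% lower. For Myh11 the difference was smaller than its SE (0.037, SE 0.060), and the spots of its dimmer probe overlapped.

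Overloaded against normal muscle concerns load without injury. Of the 9 members 8 were measured, 7 of them on both arrays, and none passed 2-fold, beside 3.2% of 17308 genes and transcripts. Among those 7, 5 differences were positive and 2 negative, with a median of 0.15 against -0.12 for all genes, and 6 lay above that. The spots of 5 members were higher (Acta2, Mylk, Rgs5, Cspg4 and Notch3) and those of 1, Myh11, lower without overlap, beside 28.3% and 47.5% of genes and transcripts counted in the same way. For Notch3 the difference was smaller than its SE (0.098, SE 0.18). It was negative with normexp background correction, quantile normalization and median scaling. The spots of the dimmer Myh11 probe overlapped. This comparison and the previous one share the normal array, so the likeness of their values is not independent.

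Regenerated overloaded against regenerated muscle concerns load after injury. None of 7 measured members passed 2-fold, beside 1.99% of 17208 genes and transcripts. With 5 positive and 2 negative differences the median was 0.16, against -0.023 for all genes, and 5 members lay above that. The spots of 5 members were higher and those of Myh11 lower without overlap, beside 30% and 34.7% of genes and transcripts counted in the same way. Regenerated overloaded against overloaded muscle had none of 8 measured members past 2-fold, beside 1.71% of 17493. Of the 7 above background on both arrays, 6 differences were positive and 1 negative, with a median of 0.086 against -0.011 for all genes. The spots of 5 were higher without overlap (Acta2, Tagln, Myh11, Mylk and Cspg4) and of none lower, beside 26.5% and 30.4% of genes and transcripts counted in the same way. The dimmer Myh11 probe had the other sign (-0.045), and Acta2 stood at 0.075 (SE 0.073). At 1.5-fold, too, no member passed in any comparison with this scaling, beside 8.1%, 11.2%, 7.11% and 5.38% of genes and transcripts. With the authors' deposited table, Cspg4 passed 1.5-fold in overloaded against normal muscle, at a log2 difference of 0.63. Set against the median of all genes, which median scaling and the authors' table move to -0.20 and 0.022 in regenerated and to -0.24 and 0.051 in overloaded against normal muscle, the members' medians stood at 0.20, 0.27, 0.18 and 0.097. Scaling by 1 constant per array leaves these unchanged, and quantile normalization gave 0.16, 0.21, 0.19 and 0.091.

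**Figure D2:**
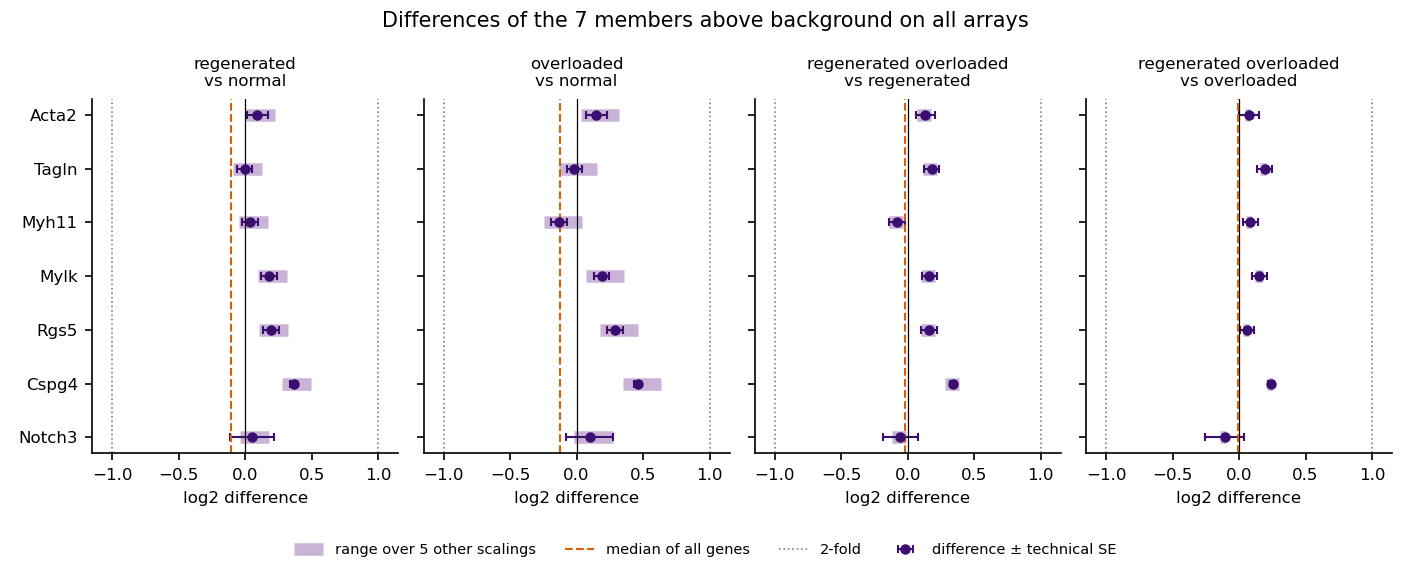
Log2 difference of the 7 members above background on all arrays in the 4 comparisons, with 1 technical SE as error bar; the pale bar is the range over 5 other scalings, the dashed line the median of all genes and the dotted lines 2-fold. All points lie between -0.13 and 0.46, inside the 2-fold lines, and Cspg4 is the rightmost in each panel.

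The order of the arrays was shared by several members. Acta2, Mylk, Rgs5 and Cspg4 were lowest in normal and highest in regenerated overloaded muscle, 4 of 7, beside 16.1% of all 14417 genes. Over the other scalings and normexp background correction it was 4 or 5 of 7, beside 11.1% to 24.2% of genes. Overloaded and regenerated muscle, the neighbours in the middle, overlapped in the spots of Acta2, Mylk and Cspg4 but not of Rgs5. The order is that of the means, and its ends were not always separate. Spots of Acta2 overlapped between regenerated and normal muscle, and those of Rgs5 between regenerated overloaded and overloaded muscle.

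The difference of differences (overload in regenerated minus overload in normal muscle) had a median of -0.026 over the 7 members, between -0.15 for Notch3 and 0.20 for Tagln. For Cspg4 it was -0.12 (SE 0.036), with an overload difference of 0.34 in regenerated against 0.46 in normal muscle. For Rgs5 it was -0.13 (SE 0.082). None of the 7 passed 2-fold, beside 110 of 14417 genes, whose median was 0.074.

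Other cell type markers differed on the same arrays. The fibroblast and activated fibroblast list, with 11 of 13 genes on the array and each above background on at least 1 of the 4, had 4 members 2-fold or more higher in regenerated than in normal muscle, 8 in overloaded than in normal, 7 in regenerated overloaded than in regenerated and 1 in regenerated overloaded than in overloaded muscle, and none lower. Over all genes and transcripts, 1.93%, 3.2%, 1.99% and 1.71% passed 2-fold in either direction in these comparisons. The fibroblast list's medians were 0.74, 1.59, 1.09 and 0.46, and its summed signal was 264, 219, 157 and 84.1 times the 75th percentile in regenerated overloaded, overloaded, regenerated and normal muscle. Postn, the matrix protein periostin, had differences of 2.01, 3.11, 2.04 and 0.95, and Col1a1, a chain of type I collagen, 1.37, 1.83, 1.07 and 0.60. Some counted genes fell below 2-fold under another setting. Cthrc1 fell to 0.68 in regenerated and Thy1 to 0.38 in overloaded against normal muscle. In regenerated overloaded against regenerated muscle, Thy1 fell to 0.71 and Col1a1 to 0.989. Tnc, the 1 gene counted in regenerated overloaded against overloaded muscle, fell to 0.89. The members summed to 11.6 in regenerated overloaded, 10.43 in overloaded, 10.3 in regenerated and 9.28 in normal muscle, with Lmod1 left out because it was at background. The 14 endothelial genes on the array, of 16, summed in those groups to 16.9, 17.3, 16.5 and 15.6, with none past 2-fold and medians of 0.13, 0.19, -0.0037 and -0.12. Pecam1, an adhesion molecule of endothelial junctions, differed by 0.24, 0.20, 0.16 and 0.20, and Cdh5, the endothelial cadherin, by -0.22, -0.26, -0.27 and -0.23. The skeletal fibre markers summed to 2202 in regenerated overloaded, 2353 in overloaded, 2407 in regenerated and 2925 in normal muscle. Each sum is relative to the array's 75th percentile, which was lowest in normal muscle. Their median for regenerated against normal muscle was -0.27, and between -0.36 and -0.055 under the other settings. For overloaded against normal muscle it was -0.31, and between -0.42 and -0.019. What part these lists have in the members' values was not tested.

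**Figure D3:**
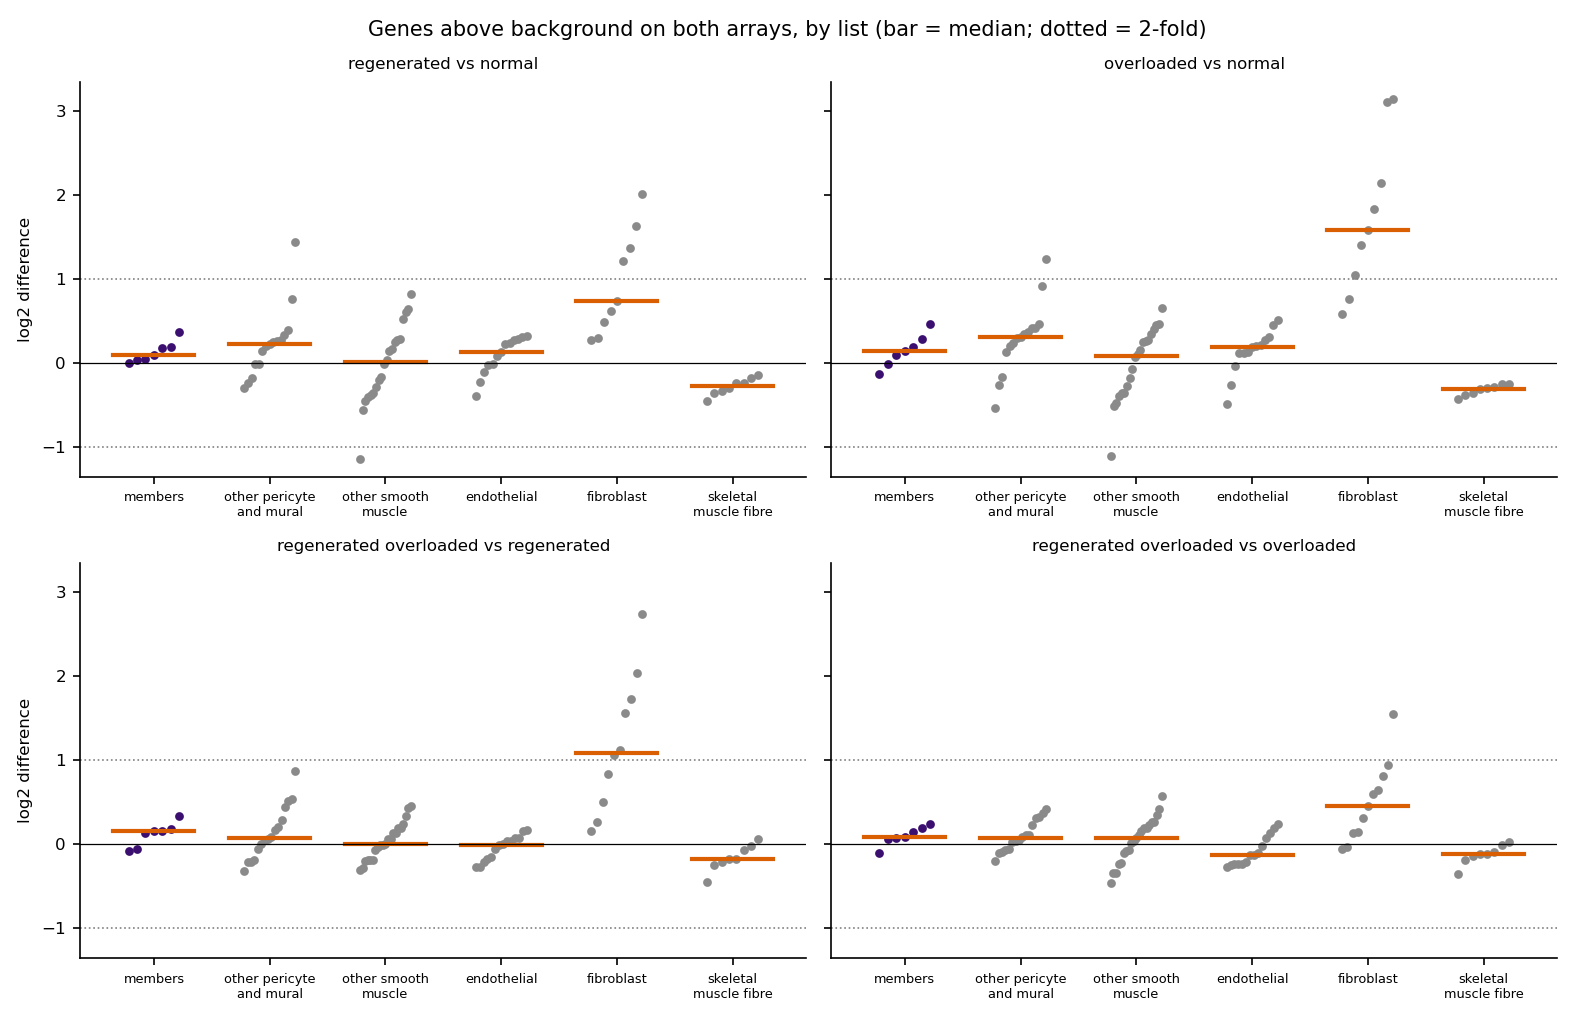
Log2 difference of every gene above background on both arrays in 6 lists, for the 4 comparisons; the bar is the list's median and the dotted lines mark 2-fold. The members stay between -0.13 and 0.46, whereas the fibroblast list reaches 2.01, 3.14, 2.74 and 1.56.

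Of 16 other pericyte and mural cell genes on the array, 1 was past 2-fold higher in regenerated and in overloaded against normal muscle: Anpep, aminopeptidase N, also made by other cells, at 1.44 (SE 0.097) and 1.24 (SE 0.10), the second 0.85 with normexp background correction. The list's medians were 0.22, 0.31, 0.072 and 0.072 for the 4 comparisons. Pdgfrb, the PDGF receptor that pericytes share with fibroblasts, had 827, 661, 540.5 and 285 units in regenerated overloaded, overloaded, regenerated and normal muscle. Its differences were 0.76 (SE 0.095), 0.91 (SE 0.094), 0.52 (SE 0.064) and 0.37 (SE 0.062), each under 2-fold, and all were positive under every setting that gave a value; overloaded against normal muscle passed 2-fold under 3 of them, at 1.02 with the 75th percentile over detected probes, 1.03 with the median of all genes set to 0 and 1.08 with the authors' deposited table. Both of its spots lay in the outer rows of the array.

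Of 22 other smooth muscle genes on the array, 1 was past 2-fold: Pln, the SERCA inhibitor phospholamban, which slow muscle fibres also make, at -1.14 and -1.11 in regenerated and overloaded against normal muscle. The second missed 2-fold under 3 settings, at -0.998 with the 75th percentile over detected probes, -0.987 with the median of all genes set to 0 and -0.936 with the authors' deposited table. The list's medians were 0.013, 0.084, 0.0097 and 0.080. Some of its genes were far brighter than any member, such as Fhl1 with 179824 and Des with 47821 units in normal muscle. Which cells gave the signal of this list was not tested. Actg2, the smooth muscle gamma-actin, differed by 0.034, 0.066, 0.20 and 0.16 on 1 spot, and the first 2 changed sign with median scaling. The second was also negative with normexp background correction and with the mean over the probes of a gene. Myl9, the regulatory light chain that Mylk phosphorylates, differed by -0.0087, 0.34, 0.43 and 0.080, the first of them positive under 4 of 11 other settings. Kcnmb1, a potassium channel subunit of smooth muscle, was at background on all arrays.

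Among 9 measured regulators of the smooth muscle programme none passed 2-fold in any comparison, and the medians were -0.057, -0.16, -0.15 and -0.055. Srf, whose promoter is printed above, had 3776, 4062, 3935 and 3679 units in regenerated overloaded, overloaded, regenerated and normal muscle, with differences of -0.064, -0.16, -0.15 and -0.057; the first 2 changed sign under some scalings. Myocd, myocardin, was dim at 64.4, 71.0, 96.2 and 89.5 units, with -0.64 (SE 0.20) for overloaded against normal and -0.67 (SE 0.20) for regenerated overloaded against regenerated muscle. Regenerated against normal muscle stood at -0.057 (SE 0.17), with the other sign under 3 of 11 other settings.

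In the Notch pathway, 16 of 17 genes on the array were measured and none passed 2-fold, with medians of 0.056, 0.12, 0.060 and -0.047. Jag1, the Jagged 1 ligand, had 498, 420, 454 and 274 units in regenerated overloaded, overloaded, regenerated and normal muscle, and differed by 0.57 (SE 0.096), 0.32 (SE 0.098), 0.041 (SE 0.070) and 0.29 (SE 0.073). Heyl, a target gene of Notch3 signalling in mural cells, was above background on 2 of the 4 arrays. It had 24.5 units in overloaded and 26.9 in regenerated muscle, which gave no fold against normal muscle. In regenerated overloaded muscle it had 20.7 units and was not called above background. Read against that signal, the log2 difference was -0.19 from overloaded and -0.47 from regenerated muscle. The second ran between -0.53 and -0.24 under other settings.

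Paralogs of the members, expressed in other cells, did not all follow them. Cnn3, the calponin of non-muscle cells, differed by 0.45, 0.54, 0.37 and 0.28, and Tagln2, the transgelin of non-muscle cells, by 0.41, 0.57, 0.15 and -0.013. Tmod3, the widely expressed tropomodulin, differed by 0.31, 0.59, 0.40 and 0.11. Mylk2, the skeletal myosin light chain kinase, had differences of opposite sign to Mylk, at -0.43, -0.51, -0.54 and -0.46 (SE 0.052 to 0.055), and Lmod2, the leiomodin of striated muscle, differed by -0.21, -0.66, -0.48 and -0.029. Of the non-muscle myosin heavy chains, Myh9 stood at 0.052, 0.073, 0.062 and 0.041, Myh10 at 0.054, -0.33, -0.35 and 0.032, and Myh14 at -0.23, -0.55, -0.24 and 0.085; the signs of Myh9 in the first 3 and of Myh10 in the first and last comparison depended on the setting. Tmod1, a tropomodulin of striated muscle, differed by 0.046, -0.36, -0.19 and 0.21, the first negative with median scaling. Among the actins, Actc1, the cardiac form, had -0.65, -0.19, -0.16 and -0.62, the second positive with quantile normalization. The cytoplasmic Actb had 0.061, 0.27, 0.096 and -0.11, the first negative with median scaling, and Actg1 0.15, 0.37, 0.22 and 0.0077, the last negative under 4 of 11 other settings. Tagln3 and Mylk3 were not above background on any array. The RGS proteins differed in sign among themselves. Rgs4, also found in pericytes, differed by 0.25, 0.31, 0.29 and 0.23 over 10 spots, Rgs3 by 0.31, 0.49, 0.37 and 0.18, and Rgs10, an RGS protein of immune cells, by 0.66, 0.78, 0.67 and 0.54. Rgs2 stood at -0.052, 0.74, 0.70 and -0.098, the first positive under 4 of 11 other settings, and Rgs16 at -0.40, -0.69, -0.25 and 0.042 (SE 0.26 to 0.31). Rgs1, which is found in lymphocytes, was the 1 paralog past 2-fold, 2.19-fold higher in regenerated than in normal muscle. In normal muscle it was not called above background, and the fold is read against its own signal there of 31.5 units. The lowest log2 difference of Rgs1 under another setting was 0.34.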

How the data were processed

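Total RNA of pooled soleus muscles was labelled with Cy3 and hybridised to 1-colour Agilent arrays, per the labels. The deposited scanner files give processed signals as a fluorescence intensity, background-subtracted and detrended by the scanner software and not scaled between arrays, with flags (other) per spot. Per the file headers Feature Extraction was version 11.5.1.1 with protocol GE1_1105_Oct12, and 10.10.1.1 in the submitters' processing notes. The authors' deposited table holds the same intensity multiplied by a constant for each array (2.02, 1.95, 2.10 and 2.14 for regenerated overloaded, overloaded, regenerated and normal muscle), on a linear, uncentred scale; the basis of the constant is unknown.

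Spots flagged as outliers, 406 to 451 per array, were dropped, and none was saturated. Log2 signals had the array's 75th percentile subtracted and were averaged over spots. Each gene is represented by its brightest probe. Of 30367 probes, 18643 matched a symbol by accession (RefSeq names, assembly GRCr8). A gene counts as measured where most spots of its probe carry the well-above-background flag in either group compared; with the flag in 1 group alone, its fold was taken against the higher of its own signal and the lowest spot called well above background. Past 2-fold is the limit used. Technical SE pool spot SDs over probes of like signal (20 bins). Genes named outside the 9 are list members past 2-fold (up to 4 per list and comparison, of the fibroblast list, 2 that are past it in most), 9 fixed genes and the paralogs. Kcnmb1, Fhl1, Des, Cthrc1, Thy1 and Tnc are named outside this rule. The rule for genes of like profile named none, since no member spans 2-fold. Members and lists were chosen with earlier results of these data known. The code was tested on simulated data. Tools were Python 3.11.15, pandas 2.3.3 and, for normexp (offset 50, on the median signal), limma 3.58.1.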

Additional observations from a re-analysis of the deposited data

Results flagged for a closer look

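The overload difference of Tagln was 0.18 in regenerated muscle and -0.018 in normal muscle on the log2 scale, values of opposite sign that drew attention to the gene, and the difference of differences was 0.20 (technical SE 0.079; between 0.067 and 0.25 under the other settings). The value in normal muscle was smaller than its SE of 0.056, its spots overlapped, and it was positive, like that in regenerated muscle, under 4 of 11 other settings. For Notch3 the overload difference was -0.057 in regenerated and 0.098 in normal muscle, each smaller than its SE, with a difference of differences of -0.15 (technical SE 0.22). With 1 array per group neither difference was tested.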

How the results depend on the processing

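The count of members past 2-fold, 0 in each of the 4 comparisons, stayed at 0 under all 48 alternatives, 1.5-fold as the limit and no filter on dim probes included. The 1.5-fold limit was tried with the main scaling alone. The median difference of the members moved by more than the technical SE in 12 of 54 alternatives. The median difference of differences, -0.026, changed sign in 1 (0.027 with median scaling), and the other 53 kept theirs. For regenerated against normal muscle the members' median was 0.0048 with median scaling, 0.20 with the 75th percentile over probes detected on all arrays, 0.22 with the authors' deposited table and 0.20 with the median of all genes set to 0, the last chosen after the data were seen. For overloaded against normal muscle these were 0.032, 0.26, 0.32 and 0.27. Median scaling gave 0.098 for regenerated overloaded against regenerated muscle. The median difference of differences was -0.13 with the 75th percentile over detected probes, -0.16 with the authors' deposited table and -0.12 with the mean over the probes of a gene. By construction a scaling by 1 constant shifts every gene of an array alike, which quantile normalization does not. The mean over probes changes only Myh11 and Mylk, the measured members with a second probe. The dimmer Mylk probe differed with overload by 0.098 in regenerated and by 0.37 in normal muscle. Of 388 values of single members, 308 stayed within their technical SE and 22 changed sign, among Acta2, Tagln, Myh11, Mylk and Notch3 alone. Over all genes, those higher and lower by 2-fold numbered 215 and 112 in regenerated against normal muscle (159 and 140 with median scaling, 332 and 91 with the authors' table), and 426 and 128 in overloaded against normal muscle (318 and 171, 720 and 82). Normexp lowered the counts to 65 and 31, 136 and 47, 78 and 25, and 43 and 27 over the 4 comparisons, from 266 and 77, and 179 and 121, in the last 2. With no filter on dim probes they were 784 and 1425, 1112 and 4586, 712 and 748, and 654 and 784, and with a probe required above background on both arrays 139 and 60, 292 and 84, 179 and 48, and 103 and 41. No paired analysis was possible because each group has 1 array, although the groups may be opposite legs of the same rats, and no replicate, slide or slide-row block could be fitted. Signal near background limits Cnn1, Lmod1, Notch3 and Heyl.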
